A study of Mus musculus with 8 samples.

Results

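Genes of blood clotting and clot removal, 9 in all, were followed by name through both deposited expression tables: the fibrinogen chain genes *Fga*, *Fgb* and *Fgg*, the procoagulant genes *F3*, *F10* and *F2*, the anticoagulant genes *Proc* and *Pros1*, and the fibrinolysis gene *Plau*. They are 9 of the 54446 genes listed, each found once by symbol and once by Ensembl identifier. The cells were the established mouse hepatoma line Hepa1-6, of C57BL/6 strain by its labels, measured by bulk mRNA sequencing in 4 groups of 2 libraries. Control cells had no treatment. The other groups were exposed for 24 h to trimethylamine N-oxide (TMAO, a gut- and liver-derived metabolite of dietary choline) at 50 µM, to TNF-α, a cytokine of inflammation, at 50 ng/ml, or to both together, called the combined group here. For the combined group, the treatment label gives TMAO as both agents, but the sample titles and the written protocol have TNF-α as the other. Within a group the libraries are numbered 14 and 16. Nothing in the labels says that they came from separate cultures. A p-value here reflects the spread within groups of 2 libraries, pooled over the groups fitted. Those libraries may be technical replicates. All groups are this one cell line.

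Clotting ends when thrombin, made from prothrombin (*F2*), turns soluble fibrinogen into fibrin. Tissue factor (*F3*) is the cell-surface trigger of the cascade, and factor X (*F10*) is the protease that, once activated, cuts prothrombin. Protein C (*Proc*) with its cofactor protein S (*Pros1*) shuts the cascade down, and urokinase (*Plau*) activates plasminogen, whose product plasmin dissolves fibrin. Hepatocytes make most of these plasma proteins, and the fibrinogen chain genes, which sit in a cluster on one chromosome, are known in the liver for their response to interleukin-6 during inflammation. A fibrinogen molecule needs all of its α, β and γ chains.

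Total counts ran from 24736746 to 30488605 per library, so that 3 counts, taken as the limit of detection, correspond to 0.0993 to 0.124 CPM (counts scaled to library size). The limit covers counting error only. TNF-α 16 stood apart, with a median correlation of 0.977 to the other libraries across genes where those had 0.988 to 0.990. Between the libraries of a group, log2 differences over genes had an SD of 0.81 in the TNF-α group and of 0.35 to 0.41 in the others. The hepatocyte genes *Alb* (1197 ± 43.7 CPM, mean ± SD, n = 2) and *Afp* (1551 ± 57.4 CPM) were abundant in control cells, but *Ttr* (0.119 CPM) and *Apoa1* (0.324 CPM) were near the limit of detection, so the defining markers of hepatocytes were present only in part. Of 8 NF-κB target genes used to check the treatment label, all 8 rose in each comparison of TNF-α with its matched cells without it, by the quasi-likelihood test of edgeR (Benjamini-Hochberg adjusted). Their summed level was 553 to 600 CPM in the 4 libraries without TNF-α and 2123 to 2614 CPM in the 4 with it.

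Of the 9 genes, 4 were expressed well above the limit of detection and 5 were at or near it. With TNF-α, *Fgb* fell 3.22-fold and *Proc* fell 3.45-fold, each by edgeR's test averaged over TMAO (4 libraries with against 4 without TNF-α). *F3* rose 1.46-fold in the same test. *Pros1* had 1.13-fold and did not pass. These are 3 called of the 4 genes that passed the filter on low counts, 1 higher and 2 lower, where 9.20% of all 15613 tested genes were called, 5.35% higher and 3.86% lower. For TNF-α against control the count was 3 of 4, 1 higher and 2 lower, beside 4.05% of all genes (2.38% higher, 1.67% lower). For the combined group against TMAO it was again 3, 1 higher and 2 lower, beside 3.64% (2.16% and 1.49%). For the combined group against control it was 2, both lower, beside 3.49% (2.01% and 1.48%). In the 4 contrasts that test TMAO or its interaction with TNF-α, edgeR called 0 members and 0% of all genes.

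The fibrinogen genes were expressed unequally. *Fgb* (ENSMUSG00000033831.5), the gene of the β chain, had 81.7 and 77.8 CPM in control 14 and 16, and 78.6 and 78.9 CPM in TMAO 14 and 16. It had 24.6 and 28.8 CPM in TNF-α 14 and 16, and 22.5 and 22.8 CPM in combined 14 and 16. The 4 libraries with TNF-α all lay far below the 4 without it. TNF-α against control gave a log2 fold change of -1.58 ± 0.11 (± SE; edgeR adjusted p = 0.00101), or 2.99-fold lower. The combined group against TMAO gave -1.80 ± 0.11 (edgeR adjusted p = 0.000662), and averaged over TMAO the change was -1.69 ± 0.08 (edgeR adjusted p = 8.24e-05). The fall in the combined group against control was 3.52-fold (log2 -1.82 ± 0.11, edgeR adjusted p = 0.000788), but that comparison shares its control libraries with the first. Fitted on those 4 libraries alone, without the TMAO and combined groups, the *Fgb* change of -1.58 between TNF-α and control did not pass (adjusted p = 0.0891).

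The bases just upstream of the *Fgb* start are shown because *Fgb* was the fibrinogen gene with transcripts in these cells and changed strongly. The window holds 250 bases before the RefSeq start, from RefSeq's mouse build GRCm38.p6, at chr3:83049864-83050113 on the minus strand, written 5′ to 3′. Capitals mark matches on either strand to the 5 motifs searched.
Fgb: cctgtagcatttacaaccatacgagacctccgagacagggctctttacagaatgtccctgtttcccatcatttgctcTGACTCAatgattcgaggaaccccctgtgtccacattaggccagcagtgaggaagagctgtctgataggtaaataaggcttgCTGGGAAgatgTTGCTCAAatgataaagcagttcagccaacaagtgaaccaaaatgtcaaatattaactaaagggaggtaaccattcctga
The first capitals, 173 to 167 bases before the start, match the AP-1 motif TGANTCA, which 6.75% of 32851 promoter windows of this length hold. The second, 91 to 85 bases before it, match CTGGGAA, the type II interleukin-6 element (9.10% of windows). The last, 80 to 73 bases before it, match the C/EBP motif TTGCNNAA (9.56%). The NF-κB motif GGANTTTCC (1.07% of windows) and the HNF1 motif (0.371%) had no match there. A match is a run of letters and was not tested as a binding site.

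The partner chains of *Fgb* were nearly silent. *Fga* (ENSMUSG00000028001.16), the α chain gene, had 2 counts in each control library, 0 and 1 in TMAO 14 and 16, and 0 in all 4 libraries with TNF-α. *Fgg* (ENSMUSG00000033860.13), the γ chain gene, had 3 counts in TMAO 14, 1 in TMAO 16 and 0 in the other 6 libraries. No library exceeded 3 counts for either gene, so both groups of libraries were at the limit of detection and no fold is given. In TPM, a scale that also accounts for transcript length, *Fgb* stood at 41.5 and 42.6 in the control libraries against 0.0569 and 0.0744 for *Fga* and 0 for *Fgg*. The fall of fibrinogen transcripts with TNF-α was thus measurable for the β chain only. In the upstream windows of the silent chains, *Fgg* held CTGGGAA 13 to 7 bases before its start and *Fga* held the C/EBP motif 135 to 128 bases before its start.

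**Figure D1:**
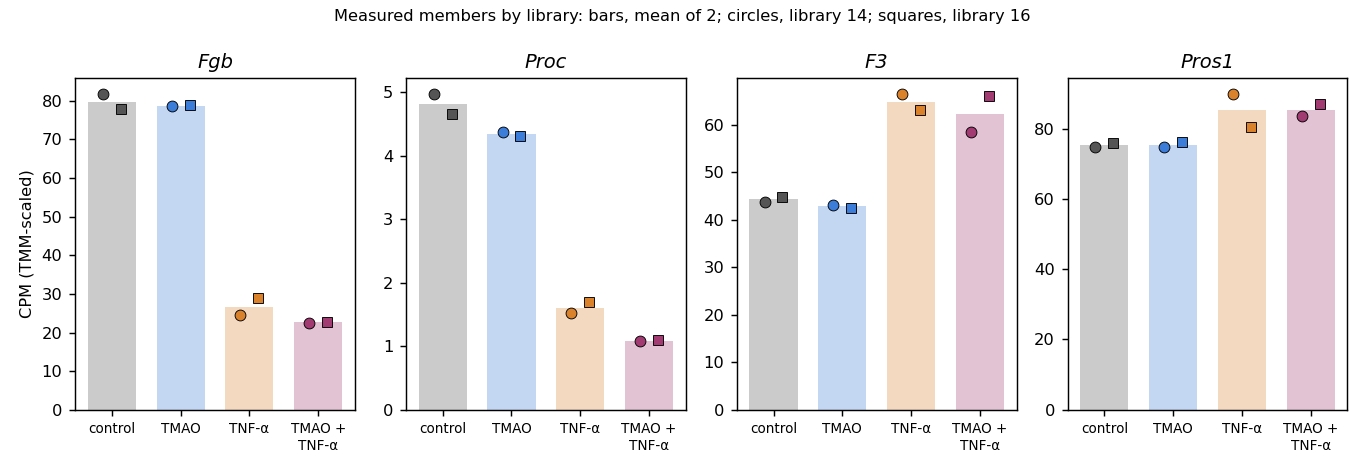
CPM (vertical axis, from 0, TMM-scaled) of the 4 expressed genes in each group (horizontal axis), with bars for the mean of 2 libraries, circles for library 14 and squares for library 16. *Fgb* lies between 22.5 and 28.8 CPM and *Proc* between 1.08 and 1.70 CPM with TNF-α, below all libraries without it, while *F3* lies between 58.5 and 66.5 CPM, above all libraries without it.

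Among the procoagulant genes the initiator was well expressed, *F2* was low and *F10* was not detected. *F3* (ENSMUSG00000028128.13), the gene of tissue factor, had 43.8 and 44.9 CPM in control 14 and 16, and 43.2 and 42.6 CPM in TMAO 14 and 16. It had 66.5 and 63.1 CPM in TNF-α 14 and 16, and 58.5 and 66.0 CPM in combined 14 and 16. The lowest library with TNF-α was above the highest without it. Averaged over TMAO the log2 fold change was 0.54 ± 0.07 (edgeR adjusted p = 0.00443), and it passed with any 1 of the 8 libraries left out (0.51 to 0.59). On the deposited TPM values tested with limma, *F3* did not pass (0.50 on the log2(TPM + 1) scale, adjusted p = 0.0728). The TPM of *F3* was 69.4 in TNF-α 14 but 51.1 in TNF-α 16, against 42.8 to 46.1 in the 4 libraries without TNF-α.

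The pairwise comparisons for *F3* were nearer the threshold. TNF-α against control gave 0.55 ± 0.10 (edgeR adjusted p = 0.0338) and the combined group against TMAO 0.54 ± 0.10 (edgeR adjusted p = 0.0374). The combined group against control, at 0.49 ± 0.10, did not pass (edgeR adjusted p = 0.0534), although DESeq2 called it (adjusted p = 0.0189). The call for TNF-α against control did not survive the removal of any single library outside the TNF-α group (adjusted p of 0.0953 to 0.273). The call for the combined group against TMAO was lost likewise (0.110 to 0.340). With any 1 library left out, the difference was 0.50 to 0.58 for TNF-α against control. For the combined group against TMAO it was 0.46 to 0.64. Without TNF-α 14 or TNF-α 16, the fit no longer counts the spread of that group, which was the widest.

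The *F3* upstream window is shown for comparison with that of *Fgb*, since the genes moved in opposite directions. It is at chr3:121723287-121723536 on the plus strand of GRCm38.p6, with capitals as above.
F3: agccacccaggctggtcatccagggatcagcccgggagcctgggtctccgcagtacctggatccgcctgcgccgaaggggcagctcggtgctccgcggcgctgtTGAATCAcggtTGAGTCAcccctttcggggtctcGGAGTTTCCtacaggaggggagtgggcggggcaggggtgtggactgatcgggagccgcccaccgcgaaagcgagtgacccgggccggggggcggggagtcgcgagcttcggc
The first and second capitals, 146 to 140 and 135 to 129 bases before the start, match the AP-1 motif. The third, 112 to 104 bases before it, match the NF-κB motif GGANTTTCC. Of the 7 genes found in the RefSeq promoter table, *F3* was the one with an NF-κB match by these letters. *Fgb* and *F2* also held an AP-1 match, the latter 180 to 174 bases before its start. *Pros1* and *F10* held none of the 5 motifs. *Proc* and *Plau* were not analysed here for promoter letters.

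*F10* (ENSMUSG00000031444.16), the gene of factor X, had 0 counts in all 8 libraries, out of 227846231 counts in all. *F2* (ENSMUSG00000027249.15), the prothrombin gene, had 3 and 6 counts in control 14 and 16, 3 and 4 in TMAO, 6 and 4 in TNF-α, and 7 and 10 in the combined group. These levels, 0.101 to 0.355 CPM, lie around the limit of detection, and the deposited TPM did not follow them (0 in TMAO 14 and 0.0190 in combined 14, at 3 and 7 counts). The sum was 16 counts over the 4 libraries without TNF-α and 27 over the 4 with it, and the ranges overlapped. *F2* did not pass the filter on low counts. Fitted with no such filter, it had an adjusted p of 0.798 (edgeR, averaged over TMAO).

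*Plau* (ENSMUSG00000021822.3), the urokinase gene, had 4 counts in control 14, 0 in control 16, 1 and 0 in TMAO 14 and 16, 1 and 2 in TNF-α 14 and 16, and 0 and 2 in combined 14 and 16. Each arm of 4 libraries summed to 5 counts. Urokinase transcripts were thus at the limit of detection with and without TNF-α, and no difference was detectable at this depth.

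**Figure D2:**
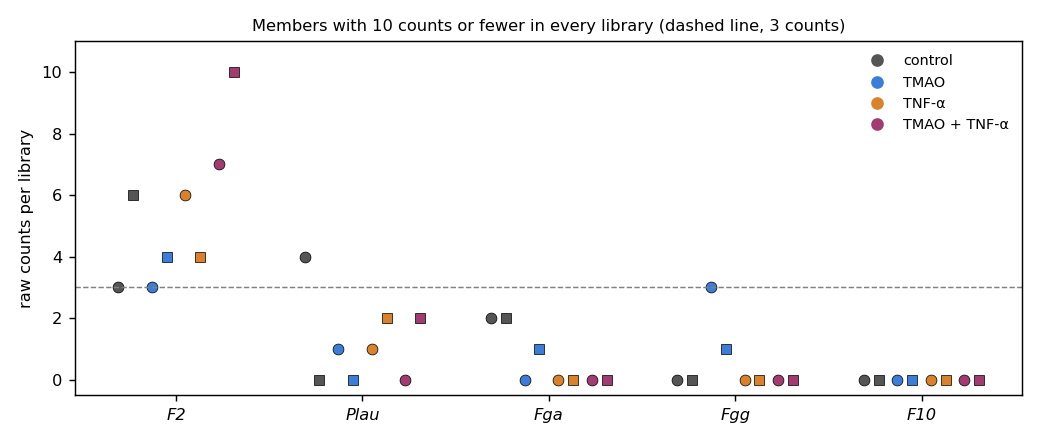
Raw counts per library (vertical axis) of the 5 genes with 10 counts or fewer in every library (horizontal axis), coloured by group, with circles for library 14, squares for library 16 and a dashed line at 3 counts. *F2* reaches 10 counts in combined 16, and *F10* is at 0 throughout.

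The anticoagulant genes differed from each other. *Proc* (ENSMUSG00000024386.8), the protein C gene, was expressed at a low level of 4.97 and 4.65 CPM in control 14 and 16, and 4.38 and 4.31 CPM in TMAO 14 and 16. It had 1.52 and 1.70 CPM in TNF-α 14 and 16, and 1.08 and 1.10 CPM in combined 14 and 16. The libraries with TNF-α held 30 to 46 counts each and those without it 125 to 147. TNF-α against control gave a log2 fold change of -1.58 ± 0.18 (edgeR adjusted p = 0.00476), and the combined group against TMAO -1.99 ± 0.18 (edgeR adjusted p = 0.00227). Averaged over TMAO, *Proc* fell 3.45-fold (-1.79 ± 0.13, edgeR adjusted p = 0.000328). The comparison of TNF-α alone with control did not pass without control 14 (adjusted p = 0.0653), without control 16 (0.0569) or with only these 2 groups in the fit (0.128).

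*Pros1* (ENSMUSG00000022912.8), the protein S gene, had 74.9 and 75.8 CPM in control 14 and 16, and 74.8 and 76.2 CPM in TMAO 14 and 16. It had 89.8 and 80.6 CPM in TNF-α 14 and 16, and 83.7 and 87.1 CPM in combined 14 and 16. The ranges with and without TNF-α did not overlap, but the difference averaged over TMAO was only 0.18 ± 0.07 on the log2 scale, with a 95% interval of 0.01 to 0.34 (edgeR adjusted p = 0.200). Without TNF-α 14 the difference was 0.14 and without TNF-α 16 it was 0.21, and either passed (adjusted p = 0.0217 and 0.00255). Those fits called 45.6% and 25% of all genes, against the 9.20% above, which holds for every call without TNF-α 14 or TNF-α 16 given below. In TPM the ranges did overlap, since TNF-α 16 had 40.8, below all 4 libraries without TNF-α (44.4 to 48.2).

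**Figure D3:**
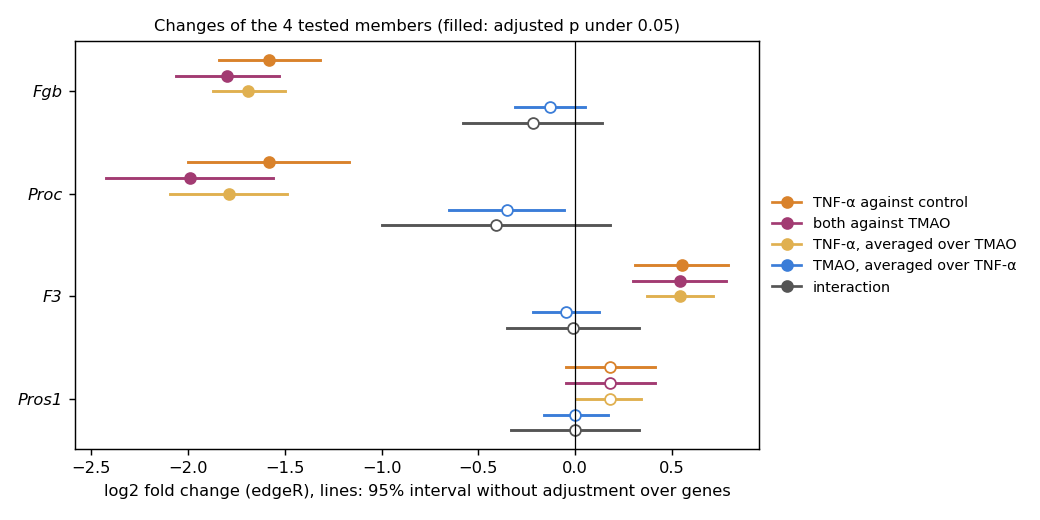
Log2 fold change (horizontal axis) of the 4 tested genes (vertical axis) in 5 contrasts, with lines for the 95% interval without adjustment over genes and filled points for an edgeR adjusted p under 0.05. The TNF-α contrasts of *Fgb* and *Proc* lie between -1.58 and -1.99, those of *F3* at 0.54 to 0.55, and the TMAO and interaction points of all 4 genes are open.

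TMAO was compared with its matched cells to see whether it moved these genes alone or on top of TNF-α. With TMAO alone against control, 0 of the 4 tested members were called by edgeR, DESeq2 or limma-voom, and 0 had an unadjusted p under 0.05 in any of these tools. Over all genes edgeR called 0%, with 184 genes at an unadjusted p under 0.05, and DESeq2 called 4 genes. Averaged over TNF-α, the TMAO difference was -0.13 for *Fgb* (95% interval -0.31 to 0.05) and -0.35 for *Proc* (-0.65 to -0.06). It was -0.05 for *F3* (-0.22 to 0.12) and 0.00 for *Pros1* (-0.16 to 0.17). None of them passed in edgeR, where the adjusted p ranged from 0.660 to 0.987. *Proc* alone had an unadjusted p under 0.05 (0.0262 in edgeR). DESeq2 and limma-voom called 0 members in this contrast as well.

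Both combined libraries had less *Proc* (1.08 and 1.10 CPM) than both TNF-α libraries (1.52 and 1.70 CPM). That difference was -0.56 ± 0.19 on the log2 scale (95% interval -1.01 to -0.11). It had an unadjusted p of 0.0225 in edgeR but did not pass over all genes (edgeR adjusted p = 0.569). By DESeq2 and limma-voom, 0 members had an unadjusted p under 0.05 in this contrast. *Fgb* was also lower in both combined libraries, by -0.24 ± 0.11 (edgeR adjusted p = 0.569), and by -0.04 on the log2(TPM + 1) scale. Over all genes edgeR called 0 here, with 549 at an unadjusted p under 0.05. DESeq2 and limma-voom called 0 as well. The interaction, which tests whether TNF-α acted differently with TMAO present, was -0.41 ± 0.25 for *Proc* (95% interval -1 to 0.18) and -0.22 ± 0.15 for *Fgb* (-0.58 to 0.14). It was -0.01 ± 0.14 for *F3* and 0.00 ± 0.14 for *Pros1*. None passed (edgeR adjusted p of 0.953 to 1), 0 had an unadjusted p under 0.05, and DESeq2 and limma-voom also called 0 members. Without TNF-α 14, *Fgb* passed in the interaction (-0.30, adjusted p = 0.0346) and in the TMAO average (-0.17, adjusted p = 0.0136), but so did 35.5% and 44.8% of all genes in those fits, so the calls say nothing particular to *Fgb*.

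Levels of the genes relative to one another were read in TPM, within each library. In control cells *Pros1* (46.2 ± 2.48 TPM, mean ± SD, n = 2), *F3* (44.4 ± 2.38 TPM) and *Fgb* (42.1 ± 0.761 TPM) followed in that order. Across the control libraries *F3* overlapped *Pros1*, but within each library its ratio to *Pros1* was 0.962. *F3* lay above *Fgb* by no more than its own SD, with ratios of 1.03 and 1.08 within control 14 and 16. *Proc* was well below them at 5.27 ± 0.0463 TPM. The TMAO group kept that order, with *Pros1* at 47.6 ± 0.800, *F3* at 43.6 ± 0.890, *Fgb* at 43.0 ± 0.233 and *Proc* at 5.15 ± 0.112 TPM. There *Pros1* lay apart from *F3*, while *F3* and *Fgb* did not differ beyond their spread. With TNF-α the order was *F3* (60.2 ± 12.9 TPM), *Pros1* (49.5 ± 12.4), *Fgb* (13.3 ± 0.517) and *Proc* (1.87 ± 0.122). The TPM of *F3* and *Pros1* overlapped between those libraries. Within each library *F3* was above *Pros1*, with ratios of 1.19 and 1.25 in TNF-α 14 and 16. In the combined group it was *F3* (65.7 ± 5.93), *Pros1* (54.5 ± 1.57), *Fgb* (12.8 ± 0.0826) and *Proc* (1.24 ± 0.115), with no overlap between neighbours.

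Ratios within a library do not depend on how libraries are scaled. The ratio of *F3* to *Fgb* in TPM was 1 to 1.08 in the 4 libraries without TNF-α and 3.96 to 5.42 in the 4 with it. The lowest of the latter was TNF-α 16. Tissue factor transcripts were thus at about the level of the fibrinogen β chain without TNF-α and at several times that level with it. The fall of *Fgb* (3.22-fold by edgeR, averaged over TMAO) was larger than the rise of *F3* (1.46-fold). The ratio of *Pros1* to its partner *Proc* was 8.38 to 9.50 without TNF-α, 29.7 and 22.8 in TNF-α 14 and 16, and 40.4 and 48.0 in combined 14 and 16. The ratio of *F3* to *Pros1* was 0.892 to 0.962 without TNF-α and 1.15 to 1.26 with it. *Fgb* and *Proc* kept closer to each other, with a ratio of 7.83 to 8.46 without TNF-α, 6.96 and 7.22 with TNF-α alone, and 9.68 and 11.1 in the combined group.

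**Figure D4:**
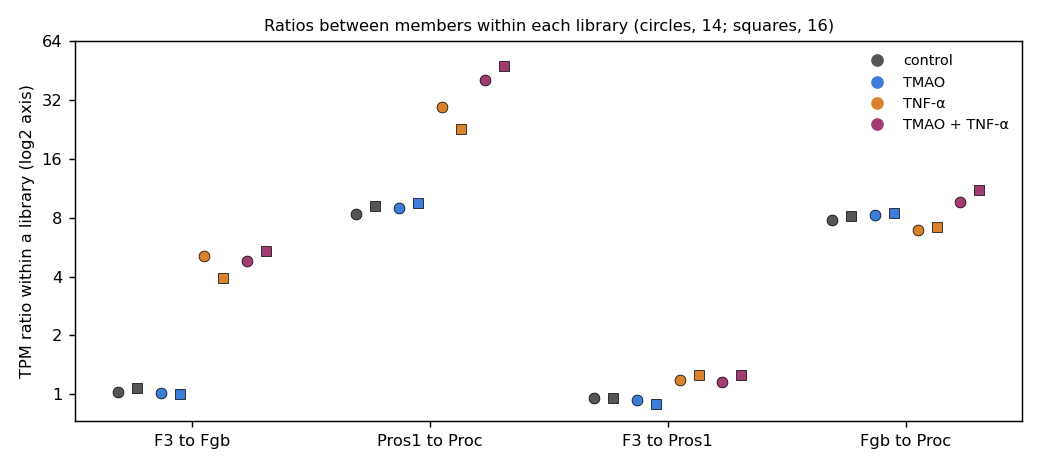
TPM ratio between 2 genes within each library (vertical axis, log2 scale) for 4 pairs of genes (horizontal axis), coloured by group, with circles for library 14 and squares for library 16. The ratio of *F3* to *Fgb* lies at 1 to 1.08 without TNF-α and at 3.96 to 5.42 with it.

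Over the 8 libraries, log2 CPM of *Fgb* and *Proc* had a Pearson correlation of 0.99, and of *F3* and *Pros1* 0.93, whereas *Fgb* and *F3* had -0.97. These values describe 8 points that share the same TNF-α groups. Among 8664 named protein-coding genes with at least 10 CPM on average, the pattern of *Fgb* was most like that of *Fst* (follistatin, an inhibitor of activin; r = 0.999), *Ihh* (Indian hedgehog, a signalling ligand; 0.999) and *Ugdh* (UDP-glucose dehydrogenase; 0.998). The pattern of *Proc* was most like that of *Gpc1* (a glypican, a cell-surface heparan sulfate proteoglycan; 0.997), *Habp2* (a plasma protease able to activate factor VII and urokinase; 0.996) and *Mboat1* (0.994). The pattern of *F3* was most like that of the matrix metalloproteinase *Mmp9* (0.991), *Zswim4* (0.991) and *Atp1b1* (a sodium pump subunit; 0.990). The sizes of change differed within these groups. Averaged over TMAO, *Fst* had -1.52, *Ihh* -1.84 and *Ugdh* -0.58, *Habp2* had -0.74 and *Gpc1* -0.37, and *Mmp9* had 1.57 on the log2 scale. On the TPM values *Habp2* and *Zswim4* did not pass in any fit (limma adjusted p of 0.0568 to 0.13). *Gpc1* did not pass there without a filter (limma adjusted p = 0.0816). The *Gpc1* call was lost when any one library outside the TNF-α group was omitted (adjusted p of 0.0763 to 0.112).

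The other coagulation factors were sparse in these cells. Of 12 other coagulation factor and contact pathway genes, 4 passed the filter on low counts (*F8*, *F9*, *F11* and *Vwf*). With TNF-α averaged over TMAO, 0 were called by edgeR, DESeq2 or limma-voom, with 0 at an unadjusted p under 0.05. By edgeR, 9.20% of all tested genes were called there. The most abundant of the list was *F11*, the gene of the contact pathway factor XI, at 1.71 CPM on average. Its log2 difference was -0.51, with -0.89 without TNF-α 14, which did pass, and -0.28 without TNF-α 16, which did not. The median of the 4 was 0.15, against 0.00 over all genes tested. The summed level of all 12 genes was 4.30 to 7.68 CPM over the 8 libraries. The genes of factor VII (*F7*) and plasminogen (*Plg*) had 0 counts in all 8 libraries.

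Of 14 genes of anticoagulants, thrombin receptors and related proteins, 5 passed the filter and 1 fell with TNF-α. Of all tested genes, 3.86% fell. The median of the 5 was -0.33 on the log2 scale. The gene that fell was *C4bp*, which encodes C4b-binding protein and is not itself an anticoagulant gene. *C4bp* had 6.02 to 6.53 CPM in the 4 libraries without TNF-α and 1.20 to 1.88 CPM in the 4 with it, a change of -2.11 ± 0.15 (edgeR adjusted p = 0.000395). With TNF-α, *C4bp* was thus 4.33-fold lower. *Procr*, the gene of the endothelial protein C receptor and the most abundant of the list at 79.8 CPM, had -0.07 and did not pass (0.05 without TNF-α 14 and -0.21 without TNF-α 16, which did pass at an adjusted p of 0.00458). *Serpinc1*, the antithrombin gene, named after its values were seen, had 20 and 18 counts over the control and TMAO groups and 3 and 2 over the TNF-α and combined groups, and did not pass (edgeR adjusted p = 0.0789).

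Of the inhibitors of fibrinolysis described here, one rose and one fell. Of 11 fibrinolysis genes, 8 passed the filter, 1 rose and 1 fell with TNF-α, with a median of 0.24. Over all tested genes, 5.35% rose and 3.86% fell. *Serpinb2*, the gene of plasminogen activator inhibitor type 2, had 9.65 to 11.2 CPM without and 16.2 to 17.98 CPM with TNF-α (0.71 ± 0.08, edgeR adjusted p = 0.00216). It did not pass on the TPM values (limma adjusted p = 0.176). *Serpinf2*, the gene of the plasmin inhibitor α2-antiplasmin, had 1.59 to 1.96 CPM without and 0.355 to 0.719 CPM with TNF-α (-1.65 ± 0.25, edgeR adjusted p = 0.00762). The annexin gene *Anxa2*, a plasminogen receptor subunit and the most abundant of the list at 761 CPM, had -0.05 and did not pass, with 0.07 without TNF-α 14 and -0.20 without TNF-α 16 (the latter passed at an adjusted p of 0.00523).

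Protein C, protein S, prothrombin and factor X need vitamin K-dependent carboxylation. Of 6 genes of that cycle and of factor secretion, all 6 passed the filter, with a median of -0.15 with TNF-α. In this test 1 of them fell, beside 3.86% of all tested genes. It was *Ggcx*, the γ-glutamyl carboxylase gene, at 25.2 ± 1.32 CPM in control and 17.1 ± 3.07 CPM with TNF-α (-0.47 ± 0.10 averaged over TMAO, edgeR adjusted p = 0.0375). Its call was lost when any one library outside the TNF-α group was omitted (adjusted p of 0.125 to 0.199), with total-count scaling (0.0541), with a replicate block (0.0775) and in the TPM fits (0.174 to 0.284). *Lman1*, a cargo receptor for factors V and VIII and the most abundant of the list at 254 CPM, had -0.17 and did not pass. It passed without TNF-α 14 (-0.20, adjusted p = 0.00144) or TNF-α 16 (-0.13, adjusted p = 0.0331).

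Of 12 transcription factor and interleukin-6 pathway genes known to control liver clotting genes, 4 fell and 1 rose with TNF-α. Their median was -0.22, and over all tested genes 3.86% fell and 5.35% rose. *Hnf4a*, a nuclear receptor of hepatocyte genes, went from 211 ± 2.85 CPM in control to 128 ± 22.5 with TNF-α (-0.65 ± 0.09 averaged over TMAO, edgeR adjusted p = 0.00639). *Il6ra*, the interleukin-6 receptor gene, went from 46.6 ± 1.67 to 24.6 ± 6.71 CPM (-0.78 ± 0.13, edgeR adjusted p = 0.0110). *Foxa2*, a forkhead factor, had -0.50 ± 0.10 (edgeR adjusted p = 0.0265). *Onecut1*, named here after its values were seen, had -1.14 ± 0.25 (edgeR adjusted p = 0.0357). *Nr1h4*, the bile acid receptor gene, rose from 4.39 ± 0.279 to 9.05 ± 0.538 CPM (0.89 ± 0.12, edgeR adjusted p = 0.00504). The calls of *Foxa2*, *Onecut1* and *Il6ra* were lost when any one library outside the TNF-α group was omitted (adjusted p of 0.0526 to 0.167). That of *Hnf4a* was lost without TMAO 14 (0.0507), combined 14 (0.0584) or combined 16 (0.0549). *Hnf4a*, *Il6ra*, *Foxa2* and *Onecut1* did not pass on the TPM values either (limma adjusted p of 0.131 to 0.731).

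Fibrinogen was set beside 12 other acute phase genes. Only 2 of them passed the filter, and 1 rose with TNF-α, beside 5.35% of all tested genes. The median over the 2 was 0.86. *Hp*, the haptoglobin gene, had 5 to 12 counts in the 4 libraries without TNF-α and 34 to 41 in the 4 with it (2.23 ± 0.25, edgeR adjusted p = 0.00201). *Hpx*, the haemopexin gene and the most abundant at 114 CPM, had -0.50 ± 0.13 and did not pass (edgeR adjusted p = 0.0694). It did pass with DESeq2 (adjusted p = 0.0131), with no filter on low counts (0.00263), in the TPM fits (0.0118 to 0.0326) and without TNF-α 14 (-0.36) or TNF-α 16 (-0.67). The acute phase genes *Hp* and *Fgb* thus moved in opposite directions.

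**Figure D5:**
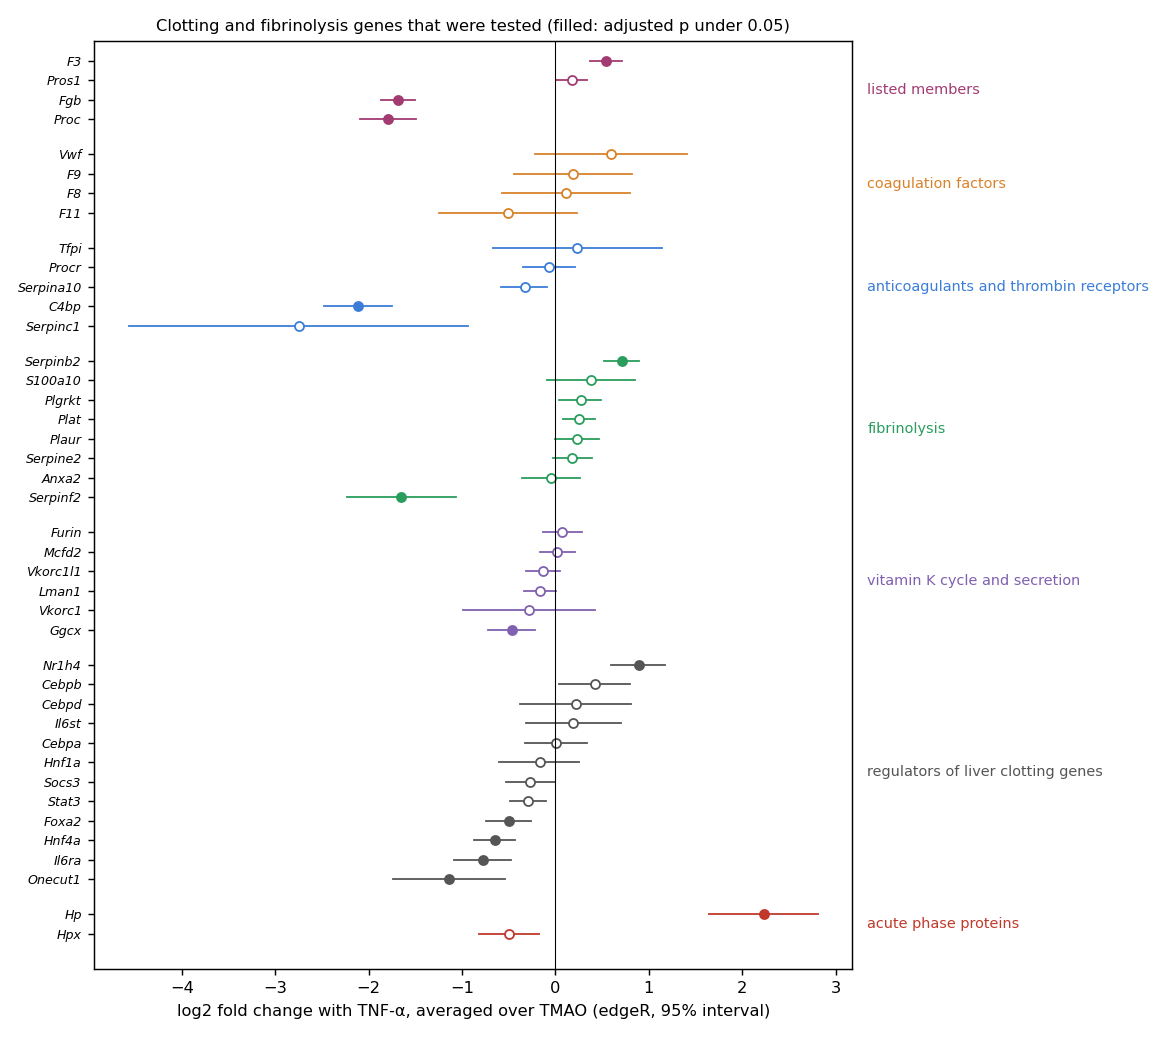
Log2 fold change with TNF-α, averaged over TMAO (horizontal axis), of the tested and reported genes of the clotting and fibrinolysis lists (vertical axis), with lines for the 95% interval and filled points for an edgeR adjusted p under 0.05. The filled points of *Proc*, *Fgb*, *C4bp* and *Serpinf2* lie at -1.65 or lower, and *F3*, *Serpinb2*, *Nr1h4* and *Hp* are filled above 0.

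Markers of other cell types were measured because tissue factor and *Plau* are also made by leukocytes, endothelium and fibroblasts. The 5 endothelial markers summed to 0.507 to 1.26 CPM and the 5 stellate cell and fibroblast markers to 1.05 to 2.45 CPM. In each of these lists 2 markers passed the filter on low counts. With TNF-α averaged over TMAO, edgeR called 0 of them, beside 9.20% of all tested genes. The 5 macrophage and leukocyte markers summed to 14.6 to 17.3 CPM in the libraries without TNF-α and 12.2 to 16.7 CPM in those with it, mostly *Cd68* and *Csf1r*. *Csf1r* fell with TNF-α (-1.08 ± 0.11, edgeR adjusted p = 0.00118). *Cd68*, the more abundant, had 0.33 ± 0.10 and did not pass (edgeR adjusted p = 0.119), though it did without TNF-α 14 (0.40, adjusted p = 0.00221). The leukocyte markers *Ptprc* and *Adgre1* were at 0 to 0.304 CPM. The 5 megakaryocyte and platelet markers summed to 9.63 to 11.5 CPM without TNF-α and 3.67 to 4.96 CPM with it, mostly *Ppbp* (-1.86 ± 0.11, edgeR adjusted p = 0.000185), with *Gp1bb* at 0 counts throughout. *Alb* fell with TNF-α as well (-1.60 ± 0.10, edgeR adjusted p = 0.000215). The part of these markers in the changes of *Fgb*, *Proc* and *F3* was not tested. In bulk RNA, fewer cells of a kind and less RNA per cell cannot be told apart.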

How the data were processed

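The authors deposited raw counts per Ensembl gene, counted with htseq per the file's own name, and TPM per gene symbol; each library has its own column in both. Build mm9 is named per the submitters' processing notes. The sources used here name no aligner, annotation, strand setting or TPM program. Symbols were matched through GENCODE M21 (54409 of 54446 identifiers without their version). Of the 9 genes, *Fgg* overlaps an antisense model without counts.

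Groups came from the titles. edgeR 4.0.16 (R 4.3.3) fitted 4 group means to all 8 libraries after filterByExpr (15613 genes) and TMM scaling, leaving 4 residual degrees of freedom, with glmQLFit (robust), glmQLFTest and Benjamini-Hochberg adjustment over all genes at 0.05. CPM uses TMM-scaled totals of tested genes. Correlations used a prior count of 2, except those between whole libraries, which used another added constant. Limma 3.58.1 tested log2(TPM + 1). DESeq2 1.42.0, limma-voom, other scalings and filters, a replicate block and left-out libraries were alternatives. The edgeR script was tested on simulated data.

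The 9 genes, the lists, the motifs and the settings were chosen with earlier results of these data known. Named from each list were up to 4 called genes with the smallest p for TNF-α averaged over TMAO and the most abundant gene. Marker genes, *F7*, *F8*, *F9*, *Vwf*, *Plg*, *Serpinc1* and *Onecut1* are named outside this rule, after their values were seen. A gene of the fibrinolysis list is not reported here and is left out of that list's counts. For each called member, the 3 genes with the most similar pattern were named. Promoter letters are RefSeq's (GRCm38.p6), 250 bases before the start, for 7 of the 9 genes; the planned 50 bases after the start were left out. That build differs from that of the deposited tables.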

Additional observations from a re-analysis of the deposited data

How the results depend on the processing

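*Fgb* and *Proc* passed with TNF-α averaged over TMAO in all 19 alternatives fitted (log2 -1.75 to -1.63 and -1.83 to -1.29), and *F3* in 16 of 19. The 3 fits of TPM values (pseudocount 1, 0.1, or 1 without a filter) did not call *F3*, which left 2 members called. Those fits called 1.95% to 5.42% of all genes. With 1 library left out, *Fgb* was at -1.75 to -1.63 and *Proc* at -1.83 to -1.74. *F3* was at 0.51 to 0.59 and *Pros1* at 0.14 to 0.21.

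Other counts of called members moved as follows. For TNF-α against control the 3 became 0 with only these groups fitted, and 1 to 4 with 1 library left out, while the share of all genes called went from 4.05% to 0.00672% and to 0.562% to 48.9%. For the combined group against control the 2 became 4 without both TNF-α 16 and control 14, and 2 to 4 with 1 library left out (all genes 3.49%, 22.8% and 0.549% to 18.4%). For the combined group against TNF-α, the TMAO average and the interaction, the 0 became 0 to 1 with 1 library left out. The 1 came without TNF-α 14, where 49.4%, 44.8% and 35.5% of all genes were called. With TMAO alone the count was 0 in every alternative run. The cause of these changes was not tested.

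Among the differences given for TNF-α, the TMAO average and the interaction, these changed sign, and none passed with its changed sign. The TMAO average of *F3* (-0.05) was 0.06 in the TPM fits. That of *Pros1* (0.00) was -0.04 without both TNF-α 16 and control 14 and -0.04 to 0.05 with 1 library left out. The interaction of *F3* (-0.01) was 0.00 with DESeq2, RLE scaling and no filter, 0.03 with total-count scaling, 0.16 to 0.17 in the TPM fits and -0.09 to 0.09 with 1 library left out. That of *Pros1* (0.00) was -0.06 without both libraries and -0.08 to 0.11 with 1 left out. With TNF-α, *Procr* (-0.07) ran from -0.21 to 0.05 and *Anxa2* (-0.05) from -0.20 to 0.07.

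The numbers 14 and 16 were also fitted as a replicate block. Differences between library 14 and library 16 correlated across genes at -0.42 to 0.00 between groups, so the numbers were not taken as pairs. With the block, 2 members were called for TNF-α against control, 2 for the combined group against control, 2 for it against TMAO and 3 for TNF-α averaged over TMAO. The shares of all genes called were 2.19%, 1.93%, 2.07% and 6.48%, in that order. Depth limits *F2*, *Fga*, *Fgg*, *F10* and *Plau*, for which 3 counts are 0.0993 to 0.124 CPM.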
